A study of Canis lupus familiaris with 8 samples.

Results

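TRAV43 is a family of variable (V) genes of the T cell receptor alpha chain (TRA). It was described here in blood T cells of 4 healthy Beagles. Members were all TRA rearrangements whose V call began with TRAV43-, in cells that carried 1 TRA and 1 TRB (beta chain) rearrangement and that also had a gene expression profile. This rule found 4540 of the 16582 such cells, with 974, 1218, 1023 and 1325 cells in dogs 1 to 4. Of the 30 TRAV genes called anywhere, 5 belonged to the family. The members used 4 of them, with 2525 cells calling TRAV43-1, 1717 calling TRAV43-4, 192 calling TRAV43-5 and 106 calling TRAV43-6. TRAV43-2 was called in 1 rearrangement, in a cell outside the rule.

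TCRαβ+ T cells were sorted from blood mononuclear cells and then frozen, and each dog gave 1 5′ single-cell gene expression library and 1 V(D)J (receptor) library. The donors were a 5-year-old female (dog 1), a pair of 7-year-old males (dogs 2 and 3) and a 9-year-old male (dog 4). All were healthy and routinely vaccinated, the labels give no treatment, and the only groups compared were cell lineages within each animal (n = 4). A cell was called CD4 when it held at least 1 CD4 and no CD8A UMI (unique molecular identifier, 1 per captured transcript), and CD8A in the reverse case. After 66 members that failed the cell filters were removed, 2484 were CD4, 464 were CD8A, 88 had UMIs of both genes and 1438 of neither.

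Cells of 1 dog with identical TRA and TRB rearrangements formed a clonotype, and each clonotype was counted once, which gave 7343 clonotypes. Of these, 34 had cells of both lineages (11 with TRAV43) and took the lineage of most of their cells, while 12 ties (6 with TRAV43) were left out. In addition, 25 paired rearrangements were identical in dogs 1 and 4 and in no other pair of dogs. They made up 27 cells of dog 1 and 340 cells of dog 4 (8 and 85 with TRAV43), had the same lineage in both dogs and shared no cell barcode. Why they recur was not tested. Counts of calls that changed without them are given in the last section, and the values of some genes below. Libraries held 26904346 to 35661623 UMIs, a median of 3534 to 3844 per cell. The CD3 genes summed to 2057 to 2429 CPM (counts scaled to equal library size) in every group, whereas the markers of B cells reached at most 10.4 CPM, those of monocytes 4.66 CPM, and PPBP (platelets) and ALAS2 (erythroid cells) were at 0. The neutrophil list summed to 820.9 to 2969 CPM through S100A8 alone, with S100A12 and CSF3R at 0.

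The alpha chain is assembled in the thymus by joining 1 V gene to 1 joining (J) gene, with bases trimmed and added at the junction. The V gene encodes the loops that lie over the major histocompatibility complex (MHC), and the junction lies over the bound peptide. CD4 T cells recognize MHC class II and CD8 T cells MHC class I. TRAJ genes are numbered along the locus, with the highest numbers nearest to the V genes, and early rearrangements draw on these before later ones reach the low numbers. The V calls, J calls and junctions of a cell come from its assembled receptor transcript.

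The V gene part of the assembled transcripts was compared because the calls did not separate the sequences that the dogs carried. Of the 6238 TRAV43 rearrangements in all cells, 5996 (96.1%) fell on 19 distinct sequences seen in at least 20 rearrangements each, named A to S here. Sequences B, C, D, E, F, H, M and S were called TRAV43-1, A, G, I, K, L, N, P, Q and R were called TRAV43-4, J was called TRAV43-5 and O TRAV43-6. None of the rearrangements equalled the germline sequence given for its call, from which the 18 sequences of full length differed by 2 to 23 of the 321 bases compared. The germline sequences given for TRAV43-1 and TRAV43-4 differed from each other by only 2 bases. Pairs of sequences with the same call differed by 1 to 25 bases (median 10), and pairs with different calls by 3 to 27 bases (median 21), so the ranges overlapped. A stretch that tells the common sequences apart (bases 115 to 204, counted from 1 at the A of the start codon) follows for the 5 sequences with at least 10 rearrangements in every dog, for 1 further TRAV43-4 sequence and for the germline of the TRAV43-1 call. Capitals mark bases that differ from sequence B.
Sequence B (called TRAV43-1): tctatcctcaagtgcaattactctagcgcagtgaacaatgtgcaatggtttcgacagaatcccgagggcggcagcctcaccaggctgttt
Sequence C (called TRAV43-1): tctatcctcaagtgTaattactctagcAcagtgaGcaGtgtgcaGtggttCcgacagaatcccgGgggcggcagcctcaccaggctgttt
Sequence D (called TRAV43-1): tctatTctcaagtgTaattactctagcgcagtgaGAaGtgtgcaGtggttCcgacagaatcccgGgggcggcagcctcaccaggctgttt
Sequence E (called TRAV43-1): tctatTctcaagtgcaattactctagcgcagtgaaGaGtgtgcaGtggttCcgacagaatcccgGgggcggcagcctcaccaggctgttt
Sequence A (called TRAV43-4): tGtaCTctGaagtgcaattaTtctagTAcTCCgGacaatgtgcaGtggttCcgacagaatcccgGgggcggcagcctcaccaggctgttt
Sequence K (called TRAV43-4): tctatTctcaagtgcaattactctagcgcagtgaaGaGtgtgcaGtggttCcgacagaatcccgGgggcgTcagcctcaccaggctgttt
Germline of the TRAV43-1 call: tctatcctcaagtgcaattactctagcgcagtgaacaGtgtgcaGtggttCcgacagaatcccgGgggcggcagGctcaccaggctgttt
In this stretch, A differed from B by 14 bases, while D differed by 8 and E by 6. K shared its bases 148 to 150 with E despite the other call. Over the whole sequence H differed from B by G234A only, and S equalled D apart from the lack of bases 53 to 55. Sequences A to E had at least 10 rearrangements in all 4 dogs, 9 sequences had them in dogs 2 to 4 but not in dog 1, L and N had them in dog 1 only, and O in dogs 1 and 4. Dogs 1 to 4 carried 10, 15, 15 and 16 of the 19 sequences at that level. Which of these are separate genes and which are alleles was not analysed here, as was their place in the genome.

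The first question was how often each lineage used the family. In CD4 clonotypes, TRAV43 made up 32.8% of dog 1 (599 of 1828), 34.6% of dog 2 (495 of 1430), 34.4% of dog 3 (421 of 1225) and 33.5% of dog 4 (394 of 1177). In CD8A clonotypes it made up 13.1% (34 of 260), 13.8% (66 of 479), 14.6% (76 of 521) and 16.5% (68 of 411). The lineages did not overlap, and the lowest CD4 share was well above the highest CD8A share. Wilson 95% intervals, which cover counting error only, ran from 30.7 to 35.0% for the lowest CD4 share and from 13.3 to 20.4% for the highest CD8A share. The mean share was 33.8% ± 0.848 (SD, n = 4) in CD4 and 14.5% ± 1.498 (SD, n = 4) in CD8A, a difference of 19.3 percentage points and a 2.33-fold ratio. A two-sided exact permutation test gave p = 0.0286, the smallest value that 4 against 4 allows, and the exact sign-flip test over the 4 dogs gave p = 0.13, again the smallest possible. The difference was 16.76 points after TRAV9-11 to TRAJ28 rearrangements, by which the study characterised MAIT-like (mucosal-associated invariant T) cells although other CD8A subsets hold them too, were left out of both lineages, 22.75 points when each cell was counted in place of each clonotype, and 19.88 points when the lineage call needed at least 2 UMIs.

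By gene, usage was tested across all 25 TRAV genes with at least 10 clonotypes by edgeR's quasi-likelihood test. Of these, 7 passed an adjusted p of 0.05, which is 28% of those tested, and 4 were higher in CD4, which is 16%. With the dog as a block, 6 passed (24%). TRAV43-1 accounted for 19.5%, 16.6%, 18.2% and 16.5% of CD4 clonotypes and for 5.77%, 8.98%, 8.06% and 8.52% of CD8A clonotypes in dogs 1 to 4. It ranked 1st of 28 genes in CD4 cells of every dog and 3rd to 5th in CD8A cells, and its CD4 and CD8A shares did not overlap. Its usage was 2.22-fold higher in CD4 (log2 fold change 1.15, SE 0.146, edgeR adjusted p = 9.0e-05). TRAV43-4 accounted for 10.9%, 15.5%, 14.5% and 14.4% of CD4 and for 4.62%, 4.38%, 6.33% and 7.79% of CD8A clonotypes. It ranked 2nd in CD4 cells of every dog and 4th to 8th in CD8A cells, again without overlap. The ratio was 2.36-fold (log2 fold change 1.24, SE 0.197, edgeR adjusted p = 0.00037), close to that of TRAV43-1.

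The 2 rare members were not found in every dog. TRAV43-5 was not found in dog 1, where 0 of 1828 CD4 clonotypes allows a share of up to 0.164%. In the CD4 clonotypes of dogs 2 to 4 it made up 2.45%, 1.63% and 1.53%, and in their CD8A clonotypes 0.418%, 0.192% and 0.243%. The lineages did not overlap within these 3 dogs. Its log2 fold change was 2.46 (SE 1.17, edgeR adjusted p = 0.146), and with the dog as a block it passed the threshold (2.66, edgeR adjusted p = 0.0063). Without dog 1 the value was 2.68 (edgeR adjusted p = 0.0018, no block). TRAV43-6 was found in dog 1, at 2.30% of CD4 and 2.69% of CD8A clonotypes, and in CD4 clonotypes of dog 4 at 1.02%, and its lineages did not differ beyond the spread between dogs (log2 fold change 0.91, SE 1.53, edgeR adjusted p = 0.706). Leaving out 1 dog moved this value from 0.27 (without dog 4) to 4.53 (without dog 1), with no fit past the threshold. As a description over the 8 dog and lineage values, which share donors and sequencing depth, the TRAV genes whose log2 usage followed the family most closely were TRAV29 (Pearson r = 0.842), TRAV12 (r = 0.805) and TRAV9-9 (r = 0.787). The family values lay far apart between the lineages and close together within them. These correlations therefore mainly restate the lineage difference, and do not show that the genes vary together between dogs.

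**Figure D1:**
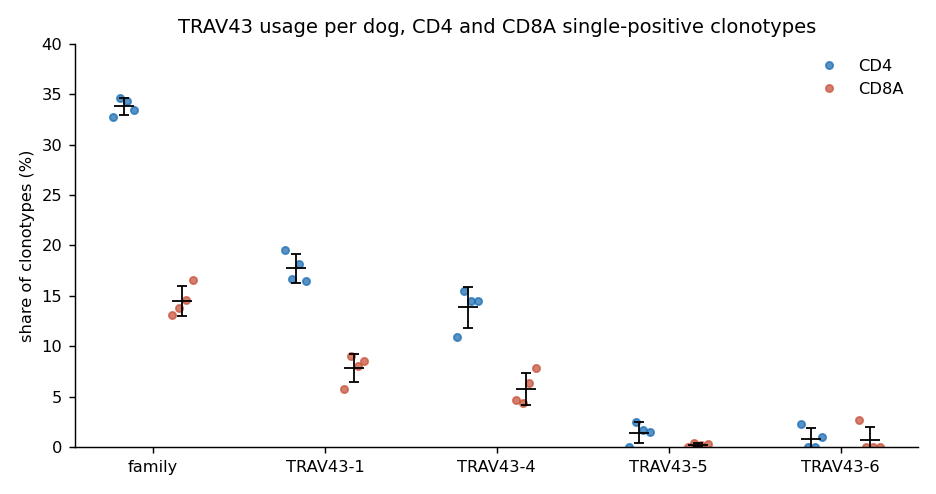
Share of clonotypes (percent, vertical axis) that used the TRAV43 family and each of its genes in CD4 and CD8A cells, 1 point per dog, with the mean and SD of 4 dogs. The CD4 points of the family, TRAV43-1 and TRAV43-4 lie above all their CD8A points, while TRAV43-5 is at 0 in dog 1 and TRAV43-6 at 0 in dogs 2 and 3.

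The family was then split by its V sequences, a step chosen after the data were seen. Of 41 TRAV genes and V sequences tested, 4 passed (9.76%), 2 of them higher in CD4 (4.88%), and these were sequences D and E, both called TRAV43-1. Sequence D made up 4.21%, 2.31%, 2.20% and 2.38% of CD4 clonotypes in dogs 1 to 4, and 0.385%, 0.418%, 0.384% and 0.730% of CD8A clonotypes. Every CD4 value lay above every CD8A value, and dog 1 was the highest in CD4. The ratio was 5.66-fold (log2 fold change 2.50, SE 0.415, edgeR adjusted p = 0.0026). Sequence E made up 4.16%, 2.24%, 2.37% and 3.31% of CD4 and 0.769%, 0.209%, 0.960% and 0.243% of CD8A clonotypes, again without overlap. Its ratio was 5.50-fold (log2 fold change 2.46, SE 0.507, edgeR adjusted p = 0.0090), and without dog 4 the log2 fold change was 2.17 (edgeR adjusted p = 0.109). These values rest on 8 CD8A clonotypes of D and 9 of E, against 165 and 176 CD4 clonotypes.

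The other 3 sequences with at least 10 rearrangements in every dog showed smaller ratios that did not pass. Sequence A was 3.098-fold higher in CD4 (edgeR adjusted p = 0.0823), B was 2.06-fold higher (edgeR adjusted p = 0.0804) and C was 2.03-fold higher (edgeR adjusted p = 0.131). With the dog as a block 16 of 41 passed (39%), among them A (edgeR adjusted p = 0.0168), B (0.0365) and C (0.0295) as well as F (0.0251), I (0.0370), J (0.0160), K (0.0099) and P (0.0463), all higher in CD4. Without dog 1, where 9 of the sequences are rare or missing, 15 of 37 tested passed with no block. Of these, 12 were higher and 3 lower in CD4. Sequence S, the form of D that lacks 3 bases, had 16 CD4 clonotypes and no CD8A clonotype, which allows a CD8A share of up to 0.576 to 1.15% by dog. Expressed as a share of TRAV43 clonotypes only, D made up 8.26% ± 3.08 (SD, n = 4) in CD4 and 3.25% ± 0.791 (SD, n = 4) in CD8A, and E made up 8.98% and 3.86%. Exact permutation tests gave p = 0.0286 for D and p = 0.0571 for E, and with 5 sequences tested both had an adjusted p of 0.143. A, B and C had exact permutation p values of 0.4, 0.743 and 0.514.

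**Figure D2:**
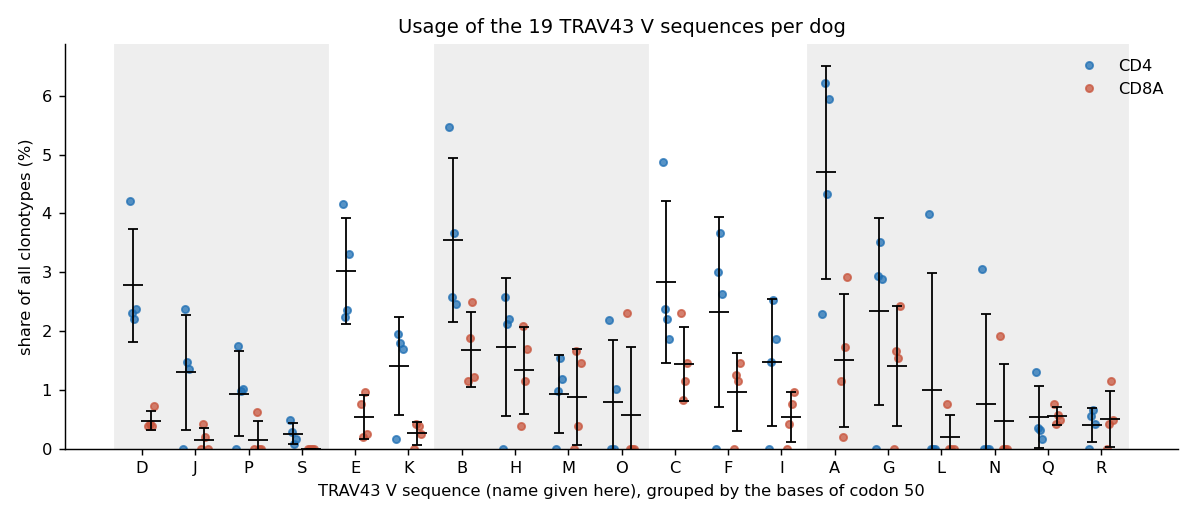
Share of all clonotypes (percent, vertical axis) that used each of the 19 TRAV43 V sequences in CD4 and CD8A cells, 1 point per dog with the mean and SD of 4 dogs, ordered by bases 148 to 150, which are codon 50 (shaded and white blocks). Sequences D and E lie at 2.20 to 4.21% of CD4 and at most 0.960% of CD8A clonotypes.

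The V sequences were then set side by side at bases 148 to 150, which stood out when the stretches above were compared. This grouping was made after the values were seen and gets no test on the clonotypes from which it was chosen. D, J, P and S read aga there, E and K aag, B, H, M and O aac, C, F and I agc, and A, G, L, N, Q and R gac. Large CD4 ratios were not confined to aga and aag. Sequence L, which reads gac, was 7.01-fold higher in CD4 (log2 fold change 2.81, SE 2.27, edgeR adjusted p = 0.460). It rests on 73 CD4 and 2 CD8A clonotypes, all of dog 1. The aga sequence J was 7.03-fold higher (SE 1.41 on the log2 scale, edgeR adjusted p = 0.210). Bases 18 and 150 were the only positions that separated the 6 aga or aag sequences from the other 13. The aga and aag sequences together made up 9.30%, 11.2%, 9.14% and 10.4% of CD4 clonotypes and 1.54%, 2.09%, 2.11% and 1.70% of CD8A clonotypes, a ratio of means of 5.38 (4.33 to 6.09 by dog). They comprised 564 CD4 and 32 CD8A clonotypes. All counts and shares by these bases, here and below, also take in rarer TRAV43 V sequences outside A to S. All other TRAV43 clonotypes made up 23.5%, 23.4%, 25.2% and 23.1% of CD4 and 11.5%, 11.7%, 12.5% and 14.8% of CD8A clonotypes, a ratio of means of 1.88. By group the ratio of means was 5.46 for aga (4.33 to 8.65 by dog), 5.27 for aag (2.71 to 10.5), 1.43 for aac (0.983 to 1.82), 2.26 for agc (1.64 to 2.76) and 2.10 for gac (1.53 to 3.47). The single groups thus overlapped between dogs, aag lay just below agc within dog 3 (2.71 against 2.74), and aac was no higher in CD4 than in CD8A in dog 2. The aga and aag groups hold only 17 and 15 CD8A clonotypes.

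TRAV43 rearrangements of cells outside the rule, for example those with a further TRA or no TRB rearrangement, had not entered these values. Those that also occurred in a member cell of the same dog were left out. Among them the aga and aag sequences made up 29.9%, 26.3%, 34.7% and 27.6% of 648 CD4 rearrangements in dogs 1 to 4. Of 72 CD8A rearrangements they made up 16.7%, 21.7%, 17.4% and 7.14%. The groups did not overlap, with means of 29.6% ± 3.67 and 15.7% ± 6.15 (SD, n = 4), a difference of 13.9 percentage points. The two-sided exact permutation test gave p = 0.0286, the smallest possible, and the sign-flip test p = 0.13. Within members, these sequences made up a mean of 29.6% of the TRAV43 clonotypes in CD4 and 12.9% in CD8A. The CD8A values of the cells outside the rule rest on few rearrangements (12, 23, 23 and 14 by dog). These cells came from the same dogs and libraries in which the grouping was chosen, so the test cannot show whether it holds in other dogs.

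The gene expression libraries, read separately, also separated the V sequences from their calls. The gene table holds no TRAV43 symbol, but several unnamed entries had a UMI in most cells of some V sequences and in few cells with other TRAV genes. ENSCAFG00000047976 had a UMI in 97.7 to 100% of the cells with sequences A, G, L, N, Q or R, compared with 4.07% of K, 8.15% of P and 37.2% of I cells, which carry the same TRAV43-4 call. In cells with other TRAV genes it was found in 4.43%. ENSCAFG00000043621 had a UMI in 99.1% of D, 99.4% of J, 88.2% of P and 93.6% of S cells and in 0.832% of cells with other TRAV genes, although D and S are called TRAV43-1, J TRAV43-5 and P TRAV43-4. ENSCAFG00000046168 was found in 81.1 to 100% of B, C, F, H, I and O cells, but also in 63.7% of P, 54.3% of E, 44.8% of J and 27.9% of K cells, and in 2.99% of cells with other TRAV genes. ENSCAFG00000049482 was found in 90.1 to 100% of E, K and M cells, and also in 63.7% of P, 42% of O and 23.1% of F cells. These 2 entries therefore separated the sequences less cleanly. Reads of near-identical genes may be split between such entries, so these shares are uncertain.

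The choice of TRAJ partner was asked in 2 ways. Between CD4 and CD8A clonotypes that used TRAV43, none of 38 TRAJ genes tested passed (0%, also 0% with the dog as a block). At an unadjusted p below 0.05 there were 3 by edgeR and 2 by DESeq2, which also called none, while TMM scaling called 1. The most used partners in CD4 members were TRAJ21 (6.29%), TRAJ27 (5.13%) and TRAJ16 (4.74%). The mean TRAJ number was 26.4 ± 0.892 in CD4 and 25.3 ± 2.99 in CD8A members (SD, n = 4, exact permutation p = 0.543). With 34 to 76 CD8A members per dog, differences of single TRAJ genes are hard to detect.

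Compared with clonotypes that used other TRAV genes, in both lineages together, members chose other parts of the TRAJ locus. Of 41 TRAJ genes tested, 26 passed (63.4%), 15 higher and 11 lower in TRAV43, and 22 passed with the dog as a block (53.7%). With TMM scaling 8 were higher and 11 lower, and with DESeq2 3 were higher and 7 lower. Without dog 1 or without dog 2, 15 passed. The locus was then divided into 3 ranges of TRAJ numbers, after the values were seen. From TRAJ1 to TRAJ20, 12 of 13 tested genes were higher and none was lower. From TRAJ21 to TRAJ40, 3 were higher and 2 lower of 15. From TRAJ41 to TRAJ61, none was higher and 9 of 13 were lower. All 13 genes of the low range lay above 0 and all 13 of the high range below 0, also with TMM scaling, where 7 and 9 of them passed. The directions were the same without TRAV9-11 to TRAJ28 rearrangements, where 8 and 9 of them passed. With DESeq2, 3 of 14 passed in the low and 6 of 15 in the high range, and with each cell counted 5 and 6 of 13 passed. In both of the latter fits 1 gene of the high range lay above 0.

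As a share of clonotypes, the low range made up 35.1%, 34.4%, 25.8% and 36.8% of TRAV43 and 19.1%, 15.1%, 17.5% and 20.5% of other clonotypes in dogs 1 to 4. The groups did not overlap, and dog 3 was the lowest of the TRAV43 values. The high range made up 14.6% ± 1.62 of TRAV43 and 30.2% ± 1.77 of other clonotypes, and the middle range 52.4% and 51.8% (SD, n = 4). TRAJ16 had 4.90%, 3.57%, 3.22% and 6.49% of TRAV43 against 2.47%, 1.48%, 2.002% and 1.87% of other clonotypes (log2 fold change 1.19, SE 0.207, edgeR adjusted p = 3.3e-07). TRAJ54 had 0.948%, 0.535%, 0.402% and 0.433% against 2.89%, 2.97%, 3.28% and 2.84% (log2 fold change -2.29, SE 0.320, edgeR adjusted p = 4.3e-10). Both were clear of overlap, in opposite directions.

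Of the other partners past the threshold, TRAJ12 (log2 fold change 1.25), TRAJ2 (1.22), TRAJ8 (1.10) and TRAJ18 (1.04) were higher in every dog. TRAJ8 did not pass with the dog as a block (edgeR adjusted p = 0.0521) or without any 1 of the dogs (0.05866 to 0.2535), and TRAJ18 did not pass without dog 2 (0.06466). TRAJ2 had a log2 fold change of 0.04 when each cell was counted (edgeR adjusted p = 0.985). TRAJ56 (-3.76) and TRAJ58 (-3.68), at the V-proximal end, were nearly absent from TRAV43 clonotypes. TRAJ56 was found in 1 dog at 0.357% and TRAJ58 in 1 dog at 0.316%, compared with 1.15 to 2.24% and 0.962 to 1.76% of other clonotypes. TRAJ52 was lower (log2 fold change -1.598, edgeR adjusted p = 7.5e-09). TRAJ28 was lower as well (-1.24, edgeR adjusted p = 3.2e-05), but not after TRAV9-11 to TRAJ28 rearrangements were left out (-0.11, edgeR adjusted p = 0.629).

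The same shift was found within each lineage. The mean TRAJ number was 26.4 in TRAV43 and 32.3 in other clonotypes of CD4 cells, and 25.3 and 32.8 in CD8A cells, with an exact permutation p of 0.0286 for each, the smallest possible (adjusted over 2 tests 0.0286). The exact sign-flip test, which pairs the groups by dog, gave p = 0.13 for each, again the smallest possible. Among the TRAV genes the mean TRAJ number ran from 24.3 for TRAV9-8 to 45.7 for TRAV38-2, so TRAV43 was not alone at the low end. It was 24.5 for TRAV43-4 and 28.1 for TRAV43-1. Within TRAV43-1 it was 23.9 for sequence E, 25.6 for D, 29.6 for C and 33.7 for B, and these differences between sequences were not tested.

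**Figure D3:**
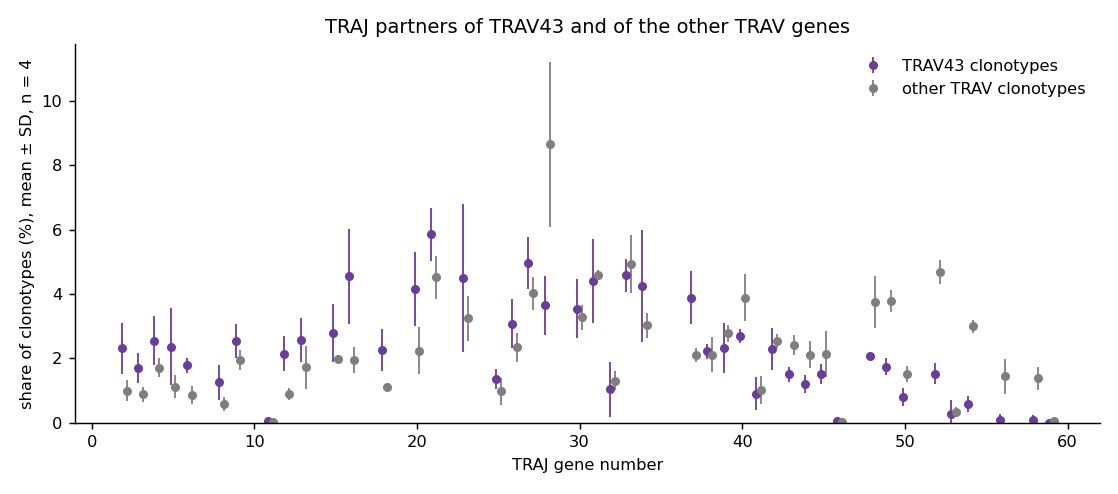
Share of clonotypes (percent, vertical axis, mean and SD of 4 dogs) that used each TRAJ gene, in order of its number (horizontal axis), for TRAV43 and for all other TRAV genes. TRAV43 lies above the other genes at low TRAJ numbers and below them at high numbers, as at TRAJ52 and TRAJ54.

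The TRA junction of members was compared in length, counted in amino acids as deposited. CD4 clonotypes averaged 13.26, 13.35, 13.39 and 13.38 residues in dogs 1 to 4 and CD8A clonotypes 13.53, 13.53, 13.74 and 13.28. The lineages overlapped through dog 4, and the means of 13.35 ± 0.060 and 13.52 ± 0.187 (SD, n = 4) did not differ beyond the spread (exact permutation p = 0.114). Averaged over the dogs, the most frequent length in both was 13 residues, with 26.7% of CD4 and 24.8% of CD8A members. Single dogs differed, since CD4 members of dog 2 peaked at 14 residues (28.1%) and CD8A members at 15 in dog 2 (24.2%) and at 14 in dog 3 (32.9%). TRAV43-1 averaged 13.45 in CD4 and 13.84 in CD8A, and TRAV43-4 averaged 13.19 and 12.97. No member gene had 20 clonotypes in every dog and lineage, the number set for a test by gene.

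Junctions of clonotypes with other TRAV genes were longer, at 13.60 residues in CD4 and 14.13 in CD8A (exact permutation p = 0.0286 between the lineages). TRAV43 junctions were thus shorter by 0.251 residues in CD4 and by 0.614 residues in CD8A (exact permutation p = 0.0286 for each). The lineage difference was larger in other clonotypes than in TRAV43 by a mean of 0.363 residues (0.188, 0.624, 0.151 and 0.489 in dogs 1 to 4, exact sign-flip p = 0.13, the smallest possible). The other clonotypes include TRAV9-11, which made up a mean of 22.5% of all CD8A but 2.71% of all CD4 clonotypes. Its junctions averaged 14.7 residues over both lineages, and its part in these length differences was not tested. The TRB junction of the same TRAV43 cells averaged 14.30 residues in CD4 and 15.6, 14.7, 14.9 and 15.4 in CD8A (mean 15.17, exact permutation p = 0.0286), and that of other cells 14.40 and 14.72 (p = 0.0286 by the exact permutation test). All 5 of these length tests had an adjusted p of 0.0286 by exact permutation and an exact sign-flip p of 0.13, the smallest possible. The junctions of members held 5.13 bases per clonotype in CD4 and 5.34 in CD8A that matched neither germline end (exact permutation p = 0.686).

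**Figure D4:**
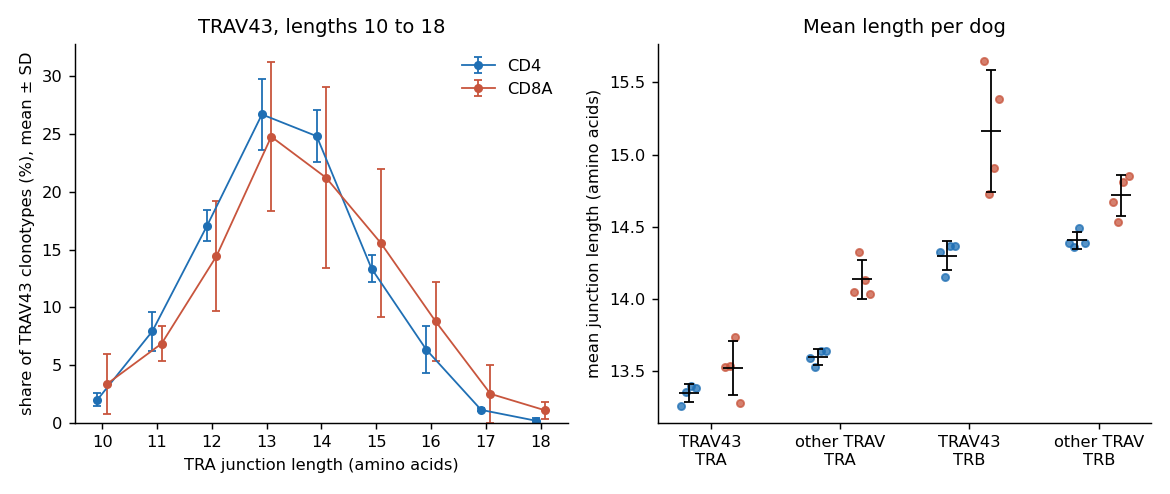
Left, share of TRAV43 clonotypes (percent, mean and SD of 4 dogs) at TRA junction lengths of 10 to 18 amino acids in CD4 and CD8A cells, and right, mean junction length of TRA and TRB, 1 point per dog with the mean and SD. Both mean TRAV43 curves peak at 13 residues, and the CD4 and CD8A points overlap only for the TRA of TRAV43.

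Few TRBV partners passed the threshold. In CD4, 1 of 18 TRBV genes passed (5.56%, 0% with the dog as a block). This was TRBV1, with 3.51%, 2.22%, 5.46% and 4.82% of TRAV43 and 8.30%, 7.27%, 5.72% and 8.30% of other clonotypes (log2 fold change -0.92, SE 0.292, edgeR adjusted p = 0.040, with the block 0.159). The groups did not overlap, with dog 3 the closest. The call was lost without dog 1 (edgeR adjusted p = 0.2632), dog 2 (0.4784) or dog 4 (0.1535). In CD8A none of 18 passed (0%, 5.56% with the dog as a block), 2 had an unadjusted p below 0.05 by edgeR and 1 by DESeq2, which called none. The gene called with the block was TRBV28, with 0%, 3.03%, 2.63% and 4.41% of TRAV43 against 8.85%, 11.9%, 9.66% and 5.83% of other CD8A clonotypes. Its TRAV43 shares rest on only 0, 2, 2 and 3 clonotypes in dogs 1 to 4. Its log2 fold change was -1.66 (SE 0.485, edgeR adjusted p = 0.055, with the block 0.019). After TRAV9-11 to TRAJ28 rearrangements were left out it was -0.41 (edgeR adjusted p = 0.745). In CD4 it was 0.60 (edgeR adjusted p = 0.313), and the difference between the lineages passed an interaction test (-2.27, SE 0.533, edgeR adjusted p = 0.0042). That test had no term for the dog, although all its groups came from the same animals, and was not rerun without TRAV9-11 to TRAJ28.

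Clonal expansion was taken as the share of clonotypes with at least 2 cells. In CD4 it was 1.84%, 9.90%, 6.41% and 15.7% for TRAV43 and 0.895%, 8.13%, 5.85% and 12.01% for other clonotypes, higher for TRAV43 in 4 of 4 dogs (exact permutation p = 0.686, exact sign-flip p = 0.13). In CD8A it was 11.8%, 24.2%, 11.8% and 20.6% for TRAV43 and 15.5%, 16.7%, 24.7% and 31.8% for other clonotypes (exact permutation p = 0.343). The dogs varied more than the receptor groups. Within TRAV43, CD8A was higher than CD4 in 4 of 4 dogs, but the groups overlapped (exact permutation p = 0.114, adjusted over 3 tests 0.343). The largest member clone held 68 CD4 cells, in dog 4.

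Rearrangements seen in more than 1 dog were rare. With the paired clonotypes common to dogs 1 and 4 left out, 19 of 2088 distinct TRAV43 rearrangements (0.910%) and 49 of 5020 others (0.976%) had the same V call, J call and junction bases in more than 1 dog. None of the TRAV43 ones and 8 of the others were in more than 2 dogs. In 10 of the 19 (52.6%) every junction base matched the germline ends, compared with 115 (5.51%) of all TRAV43 rearrangements, and the median number of unmatched bases was 0 against 5. Each of the 19 was found with 2 V sequences, so the same V call and junction bases did not mean the same V sequence. For the junctions below these were E and F, E and H, A and G, and E and H in turn. Capitals there mark bases that match neither end, and the common V end is tgtgcggtggagg.
TRAV43-1 with TRAJ15, dogs 1 and 3: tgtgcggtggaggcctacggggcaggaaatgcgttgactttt
TRAV43-1 with TRAJ16, dogs 1 and 3: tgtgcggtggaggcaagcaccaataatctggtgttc
TRAV43-4 with TRAJ28, dogs 3 and 4: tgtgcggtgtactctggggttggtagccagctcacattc
TRAV43-1 with TRAJ12, dogs 2 and 3: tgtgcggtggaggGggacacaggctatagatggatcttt
Only the last of these 4 holds an unmatched base. A base that matches a germline end can also be an added base that happened to match.

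Gene expression was compared between TRAV43 cells and cells with other TRAV genes of the same lineage, on UMI counts summed per dog. The sums held 2019387 to 3099118 UMIs for CD4 members and 181983 to 732437 UMIs for CD8A members. In CD4, 18 of 9089 genes passed (0.198%, with the dog as a block 27 or 0.297%). All 18 were TRA segments or unnamed entries, that is, the receptor genes themselves or genes the files do not name. ENSCAFG00000043621 had 140, 284, 164 and 188 CPM in TRAV43 and 3.16, 2.11, 1.15 and 1.19 CPM in other CD4 cells, and ENSCAFG00000047976 had 333.96, 375, 324 and 265 against 15.0, 14.02, 10.3 and 12.3 CPM. These entries were clear of overlap in every dog. Both followed TRAV43 V sequences above, and the cells were split by the TRAV43 call, so this difference follows from the rule. Without the block no named gene outside the receptor loci passed, at an all-gene median log2 fold change of 0.003. With the block CD244, CCL5 and GZMK were among the 27 that passed, as given below.

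In CD8A, 19 of 7402 genes passed (0.257%), 6 higher and 13 lower, and with the dog as a block 102 passed (1.38%), 30 higher and 72 lower. Most of the 19 were TRA segments or unnamed entries, that is, the receptor genes themselves or genes without a name. The others are the 6 genes named below, of which TRBV28 is also a receptor segment and SEMA4A alone was higher. SEMA4A, a semaphorin, rose, with 165, 158, 144 and 118 CPM in TRAV43 against 90.6, 99.7, 86.8 and 83.3 CPM in other CD8A cells (log2 fold change 0.69, SE 0.122, edgeR adjusted p = 0.033). PI3, an elastase inhibitor, had 0, 16.4, 3.51 and 0 CPM against 30.4, 97.0, 130 and 82.8 CPM (log2 fold change -3.73, SE 0.665, edgeR adjusted p = 0.033). Both were without overlap. DAAM1, an actin regulator, fell by 1.41 on the log2 scale (edgeR adjusted p = 0.027), SLAMF7, a receptor of activated lymphocytes, by 0.86 (0.0386), SH2D1A, the adaptor of SLAM receptors, by 0.82 (0.0090) and TRBV28 by 0.996 (0.0219), the last 3 named here after their values were seen. Without TRAV9-11 to TRAJ28 rearrangements, which by the rule are all among the other CD8A cells, 12 genes passed, and none of these 6 named genes was among them. The log2 fold changes were then 0.57 for SEMA4A, -1.07 for DAAM1, -0.63 for SLAMF7, -1.71 for PI3, -0.42 for SH2D1A and -0.42 for TRBV28, so that the first 3 kept most of their size and the others lost about as much as they kept or more. With the dog as a block as well SEMA4A, PI3, SLAMF7 and SH2D1A passed. With clonotypes of 1 cell only, none of the 6 passed, and SEMA4A was 0.38 (edgeR adjusted p = 0.9999). With the block added PI3 alone passed (-3.94), and SEMA4A was 0.40 (edgeR adjusted p = 0.745). Leaving out any 1 dog left 7 to 10 genes, and neither SEMA4A nor DAAM1 passed in any of these fits (edgeR adjusted p = 0.05029 to 0.3546 and 0.06897 to 0.3487). SLAMF7 passed in none of them either (0.1213 to 0.3487), SH2D1A passed only without dog 4 (0.01319) and TRBV28 only without dog 2 (0.03743). PI3 did not pass without dog 2, 3 or 4 (0.09086, 0.2354 and 0.2361), nor without the clonotypes common to dogs 1 and 4 (0.2247).

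None of the genes of the 4 lists, which come from the study's account of its cell subsets and so are not independent evidence, passed without the block in either lineage. With the dog as a block, 5 of 9 cytotoxic genes fell in CD8A members, namely the granzymes GZMA and GZMB, the pore former PRF1, the death ligand FASLG and the receptor KLRG1, and none rose. The median log2 fold change of the list was -0.49, against 0.007 over all genes tested, and -0.24 without TRAV9-11 to TRAJ28. GZMB had 687, 780, 824 and 1496 CPM in TRAV43 and 1464, 1157, 1470 and 1935 CPM in other CD8A cells, lower in 4 of 4 dogs, although dog 4's TRAV43 cells lay above the other cells of 3 dogs. Of the naive and memory genes, the transcription factor TCF7 and the interleukin receptor IL7R rose with the block. TCF7 had 357, 332, 295 and 242 CPM against 205, 240, 153 and 175 CPM, without overlap. Of 9 innate-like genes TOX rose and KLRB1, NCR3 and ZEB2 fell with the block, and of 9 helper genes CXCR3 and CCR9 rose. CD8A itself, which defined the lineage and is named here after its values were seen, had 1176, 1141, 1532 and 1443 CPM in TRAV43 and 1420, 1456, 1691 and 1754 CPM in other cells. It was lower in 4 of 4 dogs. No test of it is given, because its UMIs decided which cells entered the lineage. Its part in the other differences was not tested.

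Many of these blocked calls were not made in other selections of cells. With the block and without TRAV9-11 to TRAJ28, 45 of 7040 CD8A genes passed, and of the listed genes reported here TCF7 rose and GZMB and KLRB1 fell. With the block and only clonotypes of 1 cell, 22 of 5567 passed, and of the listed genes reported here IL7R rose and CCL5 and FCER1G fell. Only 30, 48, 62 and 53 CD8A member cells of dogs 1 to 4 remained there, from 43, 146, 127 and 148. The part of these lower cell numbers in the lost calls was not tested. Some directions turned in this selection, with log2 fold changes of 0.21 for GZMB, -0.22 for TOX and 0.09 for ZEB2, none of which passed. The cytotoxic list then had a median of -0.11, with 3 genes above and 6 below 0. In CD4 members CD244 (log2 fold change 1.87) and CCL5 (0.83) rose and GZMK fell by 0.90 with the block, and with clonotypes of 1 cell none of the list genes tested passed. Between TRAV43-1 and the other members, 2 of 7563 genes passed in CD4 (0.0264%, 6 or 0.0793% with the block) and 1 of 3507 in CD8A (0.0285%, 4 or 0.114% with the block), all unnamed entries without the block. With the block, GZMK fell in TRAV43-1 CD4 cells (-0.72) and FCER1G rose in TRAV43-1 CD8A cells (1.71), where it was 0 in both groups of dog 1. Neither passed with the block and clonotypes of 1 cell, where GZMK was -0.43 (edgeR adjusted p = 0.9997) and FCER1G 0.23 (0.948). CCL4 passed in that selection, lower in TRAV43-1 CD4 cells (-2.29, edgeR adjusted p = 2.7e-05). Its value with the block over all these CD4 cells was -0.35, which did not pass.

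**Figure D5:**
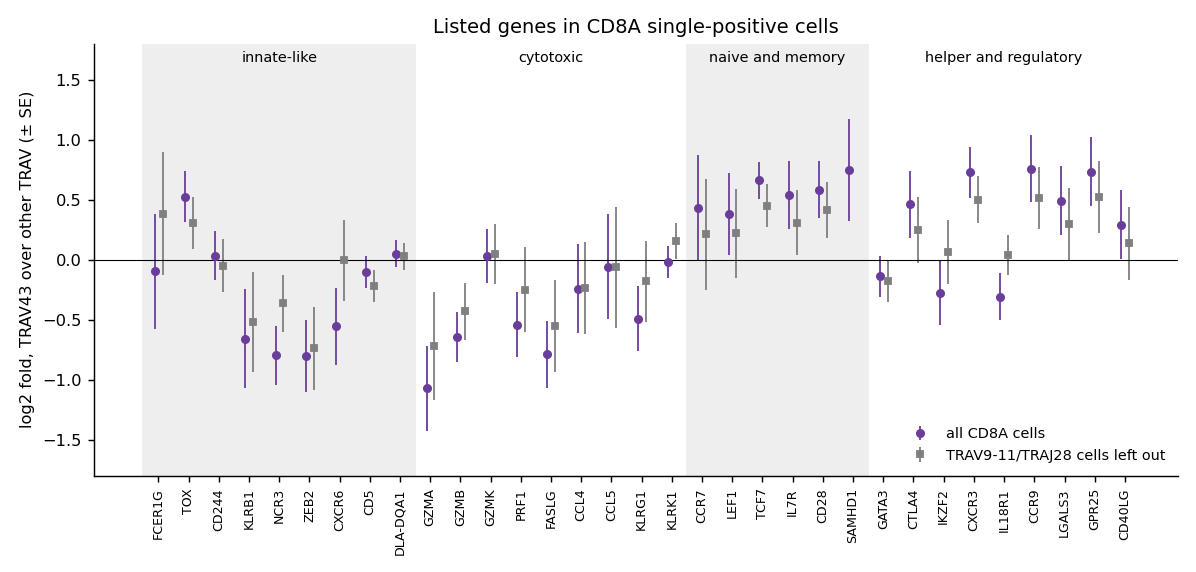
Log2 fold change (vertical axis, with SE) of TRAV43 over other CD8A cells for the tested genes of the 4 lists reported here, with and without TRAV9-11 to TRAJ28 cells, in the fit without the block. The cytotoxic list has a median of -0.49 with these cells and of -0.24 without them.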

How the data were processed

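Per the labels and the study's methods, the authors made the gene expression files with Cell Ranger 5.0.1 against CanFam 3.1 and deposited unnormalized UMI counts, 1 value for each gene in each barcode. For the receptors they deposited productive rearrangements with V and J calls, junctions, germline alignments and counts of reads and UMIs. The gene list of dog 1 held 27980 genes for a matrix of 20257, so the list of dog 2 named all matrices (correlation of log totals with the other dogs 0.989 to 0.991).

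Cells with 500 to 20000 UMIs and at most 10% mitochondrial counts were kept, and no doublet caller was run. Clonotypes per gene, or UMIs summed per dog, were tested with edgeR 4.0.16 (R 4.3.3, quasi-likelihood, Benjamini-Hochberg adjustment, threshold 0.05) with library-size scaling for clonotypes and TMM for expression, and single values with two-sided exact permutation tests (scipy 1.17.1). DESeq2 1.42.0, TMM scaling, low-count filters, other clonotype definitions and leaving out each dog were alternatives. Both lineages came from the same animals, which pairs them. Deviations of the 2 lineages from their means correlated at 0.583, 0.416, 0.267 and -0.438 in dogs 1 to 4 for TRAV usage, and those of TRAV43 and other cells at 0.387 to 0.705 for CD4 and 0.194 to 0.397 for CD8A expression. The fit without the block was kept as the main one. Named TRAJ and TRBV genes were those past the threshold with the same direction in every dog, up to 5 each way by fold, or otherwise the 3 most used. Named expression genes were up to 10 each way and the lists. The naive and memory list is given in part, and 1 of its tested genes is not reported here. The members, lists and comparisons were chosen with earlier results of these data known. The edgeR fits were tested on simulated counts, and the exact tests on small sets of made-up values. Intervals cover counting error only.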

Additional observations from a re-analysis of the deposited data

Results flagged for a closer look

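Several TRAV43 values stood apart in ways the comparisons above do not cover. Among CD8A members, dog 1 had 4.12 junction bases per clonotype that matched neither germline end, against 5.66 to 5.82 in the other 3 dogs, a gap of 0.908 of the whole range. The value of dog 1 rests on 34 clonotypes, and chance marks about 1 in 20 such groups, of which 16 were tested.

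For TRBV28 the log2 fold change of TRAV43 over other clonotypes was -1.66 in CD8A and 0.60 in CD4. The difference passed the interaction test given above, which had no term for the dog. Without TRAV9-11 to TRAJ28 clonotypes the CD8A value was -0.41, and their part in the difference between the lineages was not tested.

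Cells that entered neither lineage also held the family. TRAV43 made up 25.46% of clonotypes whose cells had neither CD4 nor CD8A UMIs (mean of 4 dogs, 22.89 to 28.27%) and 26.88% of those whose cells had both (23.21 to 30.19%), between the CD4 and the CD8A shares in every dog. Among the TRA rearrangements of cells with 2 TRA and 1 TRB rearrangement it made up 24.88% (21.15 to 29.29%).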

How the results depend on the processing

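The share of the family kept its direction under every alternative run. With 3 dogs against 3 the smallest possible exact permutation p is 0.1, which each of these fits gave, with differences of 18.8 to 20.1 percentage points, and with the dog as a block the difference of 19.31 points had a sign-flip p of 0.13. The block changed the calls given in the report and no other call of a TRAV43 gene. Between CD4 and CD8A members TMM scaling called 1 TRAJ gene. Against other TRAV genes, 16 TRAJ genes passed with at least 2 UMIs for the lineage call, 11 with each cell counted and 10 with DESeq2, and 15 to 19 with 1 dog left out. Leaving out the clonotypes of 2 dogs gave 24 TRAJ genes, and leaving out TRAV9-11 to TRAJ28 gave 19. For TRBV in CD4, 0 passed with at least 2 UMIs, with each cell counted and with the block, and 0 to 1 with 1 dog left out. For TRBV in CD8A, 2 passed with each cell counted, 1 each with TMM scaling, with no low-count filter and with the block, and 0 to 1 with 1 dog left out.

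For expression in CD8A, 12 of 7040 genes passed without TRAV9-11 to TRAJ28, 32 of 13103 with no low-count filter and 102 of 7402 with the block. Clonotypes of 1 cell gave 11 of 5567, the block without TRAV9-11 to TRAJ28 gave 45 of 7040, and leaving out 1 dog gave 7 to 10. Leaving out the clonotypes of 2 dogs gave 17 of 7381 genes in CD8A and 19 of 9043 in CD4. Between TRAV43-1 and the other members the block called 6 genes in CD4, also 6 without TRAV9-11 to TRAJ28 and with clonotypes of 1 cell. In CD8A it called 4, 4 and 9, clonotypes of 1 cell without the block 2, no low-count filter 12 and leaving out 1 dog 1 to 3. Split by V sequence, 7 passed with DESeq2 and 3 to 15 with 1 dog left out. Members near a log2 fold change of 0 turned sign: H at -0.058 with TMM scaling, M at -0.17 with at least 2 UMIs, -0.23 without TRAV9-11 to TRAJ28, -0.37 with TMM scaling, -0.17 with DESeq2, -0.0076 without the clonotypes of 2 dogs and -0.60 to 0.48 with 1 dog left out (-0.60 without dog 3), Q at -0.23, -0.24, -0.12, -0.22 and -0.015 without TRAV9-11 to TRAJ28, with TMM scaling, with DESeq2, with the block and without the clonotypes of 2 dogs and -0.76 to 0.22 with 1 dog left out (-0.76 without dog 1), R at 0.042 with each cell counted, and the unnamed V sequences together at -0.40 to 0.14 with 1 dog left out (0.14 without dog 1). The causes were not tested. The number of CD8A members, 34 to 76 clonotypes per dog, sets what could be detected there.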
